A study of Mus musculus with 3 samples.

Results

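Complement is a system of blood and tissue proteins that tags and lyses targets and recruits immune cells. In its classical route the recognition protein C1q carries the proteases C1r and C1s, which cleave C4 and C2 to build an enzyme that splits C3, and in its alternative route factor B forms the C3-cleaving enzyme. Fibroblasts and other stromal cells make several of these proteins locally, and inhibitors in plasma and on cell membranes hold the cascade in check. The 9 genes described here were taken as the stromal set by a list of symbols matched to gene IDs: the proteases C1ra, C1s1 and C1rl, the components C4b, C2, C3 and Cfb, and the inhibitors Serping1 and Cd55. All 9 were listed in every library, and they are 9 of 16621 genes listed in at least 1 library.

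The RNA came from cultured tail tendon derived stem cells, the progenitor cells that grow out of tendon, of the C57BL/6 strain at 10 weeks of age. The DF508 group (2 libraries, replicates 1 and 2) carried the ΔF508 mutation of Cftr, the deletion of a phenylalanine from the CFTR anion channel that causes most cystic fibrosis, and the WT group was 1 wild-type library. All cells were untreated, were kept in low-glucose medium with fetal bovine serum and were harvested confluent at passage 4. The labels give neither sex nor the number of animals, and whether the DF508 libraries are separate animals or cultures is not stated, so p-values measure the spread between these libraries, which may be technical.

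The libraries held 5241826 and 5246886 estimated counts in DF508 replicates 1 and 2 and 5298326 in WT. Cftr (gene ID 12638) had 1 count in each DF508 library and 15 in WT. The ratio to WT was 0.0674 in replicate 1 (exact 95% counting interval 0.0016 to 0.438) and 0.0673 in replicate 2 (0.0016 to 0.438), so each was below WT beyond counting error, while the test across genes did not pass (log2 fold change -3.78 ± 1.1 SE, adjusted p = 0.185, edgeR quasi-likelihood test). The deletion removes 1 residue and leaves the gene in place, so this level does not check the labels. Of 10 tendon and fibroblast markers all 10 were listed in every library, with the tenocyte membrane protein Tnmd at 82.5, 145 and 70.2 FPKM (fragment counts adjusted for gene length and sequencing depth) in DF508 replicates 1 and 2 and WT. Scx was the lowest of that list, at 1.88, 2.22 and 2.71 FPKM in these libraries, from 11, 13 and 16 counts. Of that list the proteoglycan gene Dcn passed the test, higher in DF508 (log2 fold change 0.52 ± 0.09 SE, adjusted p = 0.0417). The epithelial list summed to 0.763, 0.572 and 0 CPM (counts scaled to the library total) in these libraries and the lymphoid list to 0, 0 and 0.378 CPM, while the 5 endothelial markers summed to 13.2, 12.6 and 14.7 CPM, nearly all of it Tek. Myeloid markers were present and unequal: 16 markers summed to 162 and 745 CPM in DF508 replicates 1 and 2 and to 104 CPM in WT. Over 12465 genes the chi-square between the DF508 libraries was 3.69 times its degrees of freedom, which is above sampling noise. Against WT it was 7.2 times for DF508 replicate 1 and 8.41 times for replicate 2. By this measure the DF508 libraries were the most alike.

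No complement gene of the 9 passed the threshold for a rise or a fall in DF508 against WT. With 1 WT library, a gene not called may still differ. The test across all genes (edgeR quasi-likelihood, Benjamini-Hochberg adjusted p under 0.05) called 0 of the 9, against 1.39% of the 12888 genes tested. At an unadjusted p under 0.05 there were 2, C1rl and Cd55, against 11.9% of all genes, and both were lower, against 6.08%. The 10 alternative fits, with DESeq2 and limma among them, called 0 of the 9 as well. However, 5 of these fits called no gene at all and so say nothing about the 9. DESeq2 gave no adjusted p for 4 of the 9 (C2, C4b, C1rl and Cd55). The median log2 fold change was 0.02 for the 9 genes, with 5 positive and 4 negative, and 0.01 for all genes tested. What the libraries did show was a spread inside the DF508 pair. Of the 9 genes, 7 were higher in replicate 2 than in replicate 1, by 1.25-fold to 1.95-fold, where 49.7% of all genes were higher. For each of these 7, replicate 1 lay below WT and replicate 2 above it, which held for 13.4% of all genes tested. In such bulk RNA, fewer cells of one type and less RNA per cell cannot be told apart.

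**Figure D1:**
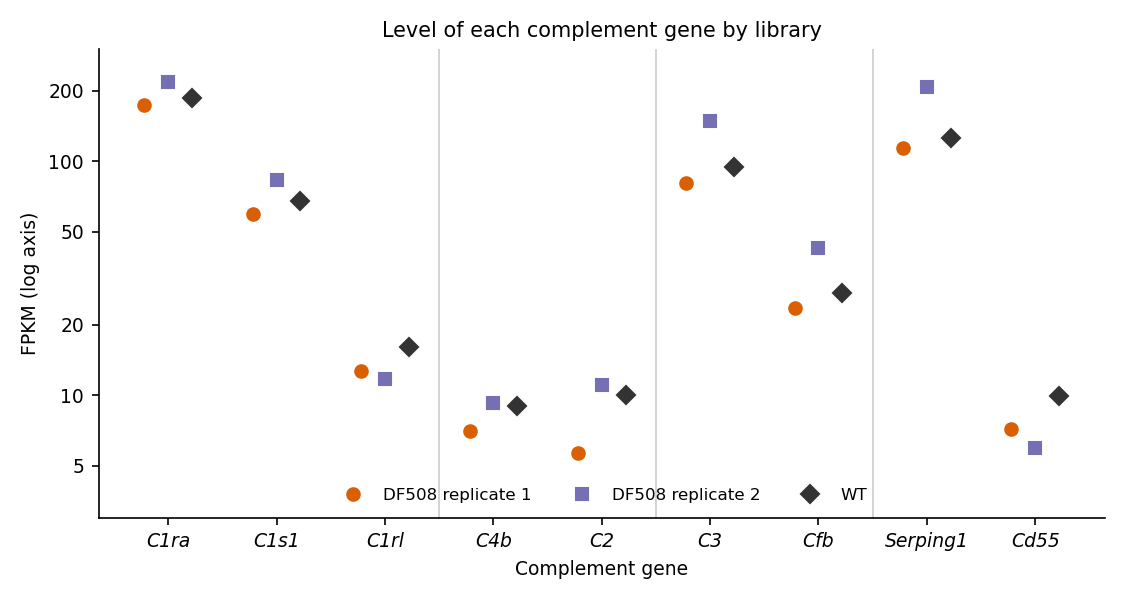
FPKM of each of the 9 complement genes on a log axis, with 1 point per library (circles, DF508 replicate 1; squares, DF508 replicate 2; diamonds, WT). For C1rl and Cd55 both DF508 points lie under the WT point, and for the other 7 genes the WT point lies between the DF508 points.

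The 9 genes differed widely in level per gene length. C1ra, Serping1, C3 and C1s1 together made up 88.4% and 89.0% of the summed FPKM of the 9 genes in DF508 replicates 1 and 2 and 86.8% in WT. The order C1ra, Serping1, C3, C1s1, Cfb, C1rl was the same in all 3 libraries, and the 3 lowest genes, C2, C4b and Cd55, changed places among themselves. Between neighbours in this order the ranges over libraries overlapped from C1ra to C1s1 and among C2, C4b and Cd55, and did not overlap between C1s1, Cfb, C1rl and C2. C1ra stood above 98.0% and 98.4% of listed genes in DF508 replicates 1 and 2 and above 98.1% in WT. The mean FPKM of the highest gene, C1ra, was 25.0 times that of the lowest, Cd55.

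C1r is the protease that activates itself within the C1 complex and then cleaves C1s, its partner and the enzyme that acts on C4 and C2. C1ra (gene ID 50909) had 174 and 216 FPKM in DF508 replicates 1 and 2, against 186 FPKM in WT. C1s1 (gene ID 50908) had 59.4 and 83.4 FPKM in the DF508 libraries, against 67.5 FPKM in WT. Both genes were lowest in DF508 replicate 1 and highest in replicate 2, and the DF508 range spanned the WT value. The fitted log2 fold changes of DF508 over WT were 0.02 ± 0.13 (SE, 95% interval -0.28 to 0.32) for C1ra and 0.04 ± 0.18 (-0.36 to 0.43) for C1s1. Their adjusted p-values were 0.975 and 0.966. C1ra varied least of the 9 genes, 1.25-fold between its highest and lowest library. The pair kept a similar proportion: the FPKM of C1ra was 2.93 and 2.6 times that of C1s1 in DF508 replicates 1 and 2 and 2.76 times in WT.

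C1rl (gene ID 232371) encodes a C1r-like serine protease. It had 12.7 and 11.7 FPKM in DF508 replicates 1 and 2, against 16.1 FPKM in WT. Both DF508 libraries were below WT and close to each other (36.8 ± 1.98 CPM in DF508, SD, n = 2, and 48.6 CPM in WT). In counts scaled to library totals, replicate 1 was at 0.784 of WT (exact 95% interval 0.648 to 0.946) and replicate 2 at 0.728 (0.6 to 0.882), intervals that cover counting error only. The fitted log2 fold change was -0.45 ± 0.14 (SE) and did not pass the threshold (edgeR adjusted p = 0.22, and 0.178 to 0.662 in the alternative fits). C1rl, C1ra and C1s1 follow each other on mouse chromosome 6 in the RefSeq table of GRCm38.p6, which is not the build the authors used. A predicted gene, Gm44096, overlaps C1rl there, and since strand use in counting is not given, their reads cannot be told apart.

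The RefSeq promoter window of C1ra, the most abundant of the set, is shown with matches in capitals. Each window runs 250 bases before to 50 after the gene start (GRCm38.p6), and 5 of the 9 genes, C1ra, C1s1, C1rl, C3 and Cd55, have one. Both strands were searched for the STAT site GAS (TTCNNNGAA), the interferon element core GAAANNGAA, the NF-kB site, the CCAAT box, the C/EBP pattern TTGCNNAA and the TATA box TATAAA. Among all 32851 windows these are held by 8.3%, 8.56%, 8.46%, 37.4%, 10.8% and 13.6%. The C1ra window has a C/EBP match at base 267 and a GAS match at base 283, counted from 1 at its 5′ end. Such a match describes letters and does not show binding. The C1ra window lies at chr6:124512371-124512670 on the plus strand.
C1ra: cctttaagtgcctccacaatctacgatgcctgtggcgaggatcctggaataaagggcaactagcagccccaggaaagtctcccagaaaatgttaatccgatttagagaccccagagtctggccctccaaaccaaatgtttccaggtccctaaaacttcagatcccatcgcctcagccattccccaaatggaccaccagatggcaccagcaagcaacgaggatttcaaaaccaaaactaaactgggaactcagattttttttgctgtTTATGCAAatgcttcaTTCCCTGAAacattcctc

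C4 and C2 are the substrates of C1s, and their fragments join into the classical enzyme that cleaves C3. C4b (gene ID 12268) had 7.03 and 9.25 FPKM in DF508 replicates 1 and 2, against 9.01 FPKM in WT. C2 (gene ID 12263) had 5.7 and 11.1 FPKM in DF508 replicates 1 and 2, against 9.99 FPKM in WT. For both genes DF508 replicate 1 was low, while replicate 2 and WT were close to each other. The C2 count was 79 in replicate 1, 154 in replicate 2 and 140 in WT. Replicate 1 was 1.75-fold below WT for C2, the widest distance from WT in this library among the 9 genes, with a ratio of 0.57 (exact 95% counting interval 0.427 to 0.757). In replicate 2 the ratio to WT was 1.11 (0.878 to 1.41) for C2 and 1.03 (0.864 to 1.23) for C4b, so neither differed from WT beyond counting error there. The fitted log2 fold changes were -0.29 ± 0.33 (SE, 95% interval -1.04 to 0.45) for C2 and -0.19 ± 0.17 (-0.59 to 0.2) for C4b, with adjusted p = 0.8 and 0.742.

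C3 is the protein on which all routes meet, and its fragments tag surfaces and attract cells. C3 (gene ID 12266) had 80.5 and 149 FPKM in DF508 replicates 1 and 2, against 94.3 FPKM in WT. Factor B, Cfb (gene ID 14962), which binds C3b and supplies the protease of the alternative route, had 23.7 and 42.5 FPKM in the DF508 libraries, against 27.3 FPKM in WT. For both genes replicate 2 stood above WT, by 1.58-fold for C3 (exact 95% counting interval 1.5 to 1.66) and 1.56-fold for Cfb (1.37 to 1.77). In replicate 1 the ratio to WT was 0.853 (0.806 to 0.904) for C3 and 0.869 (0.75 to 1.01) for Cfb. The DF508 libraries thus differed from each other by more than either differed from WT, 1.85-fold for C3 and 1.79-fold for Cfb. The means were 594 ± 250 CPM for C3 in DF508 (SD, n = 2), against 489 CPM in WT, and 91.7 ± 36.9 CPM for Cfb, against 75.5 CPM in WT. With that spread the fitted log2 fold changes, 0.24 ± 0.28 for C3 and 0.24 ± 0.27 for Cfb (SE), did not pass (adjusted p = 0.812 and 0.81), and their 95% intervals ran from -0.39 to 0.86 and from -0.38 to 0.85. Within a library the FPKM of C3 was 3.4 and 3.5 times that of Cfb in DF508 replicates 1 and 2 and 3.46 times in WT, so this ratio moved little while both levels moved.

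The C3 window is shown because C3 differed most between the DF508 libraries among the genes that have one. It holds a C/EBP match at base 206 and the TATA letters at base 265, and no match to the GAS, interferon, NF-kB or CCAAT letters searched. It lies at chr17:57228087-57228386 on the minus strand.
C3: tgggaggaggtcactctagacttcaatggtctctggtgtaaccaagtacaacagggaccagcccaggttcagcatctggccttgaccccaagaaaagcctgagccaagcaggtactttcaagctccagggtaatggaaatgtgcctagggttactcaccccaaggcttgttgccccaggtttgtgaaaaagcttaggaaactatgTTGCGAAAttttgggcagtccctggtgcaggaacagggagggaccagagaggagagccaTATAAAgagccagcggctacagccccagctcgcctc

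C1 inhibitor, the serpin encoded by Serping1, traps C1r and C1s. Serping1 (gene ID 12258) had 114 and 206 FPKM in DF508 replicates 1 and 2, against 126 FPKM in WT. Replicate 2 was high and the other libraries were close: the ratio to WT was 0.903 (exact 95% counting interval 0.831 to 0.981) in replicate 1 and 1.64 (1.52 to 1.76) in replicate 2. The fitted log2 fold change was 0.3 ± 0.27 (SE, 95% interval -0.32 to 0.92, adjusted p = 0.74). Its level relative to its target differed between libraries, with a Serping1 to C1ra ratio of FPKM of 0.654 and 0.952 in DF508 replicates 1 and 2, against 0.675 in WT.

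Cd55, decay-accelerating factor, is the membrane-anchored inhibitor that takes apart the C3-cleaving enzymes. Cd55 (gene ID 13136) had 7.21 and 5.94 FPKM in DF508 replicates 1 and 2, against 9.94 FPKM in WT. Both DF508 libraries were below WT, at 0.722 (exact 95% counting interval 0.549 to 0.947) and 0.6 (0.448 to 0.798) of its level in counts scaled to library totals. The DF508 libraries did not differ from each other beyond counting error, with a ratio of replicate 2 to replicate 1 of 0.831 (0.609 to 1.13). Cd55 had the largest fitted change of the 9 genes, a log2 fold change of -0.64 ± 0.21 (SE, 95% interval -1.13 to -0.15), which did not pass the threshold over all genes (adjusted p = 0.254, and 0.21 to 0.662 in the alternative fits). The C3 to Cd55 ratio of FPKM was 11.2 and 25.0 in DF508 replicates 1 and 2 and 9.49 in WT. An antisense gene, Cd55os, overlaps Cd55 in the RefSeq table, and its reads cannot be told apart from those of Cd55 without strand. The windows of C1rl and Cd55 are shown because both DF508 libraries were below WT for these genes. The C1rl window, at chr6:124492863-124493162 on the plus strand, has a C/EBP match at base 8. The Cd55 window, at chr1:130462695-130462994 on the minus strand, has no match to the letters searched.
C1rl: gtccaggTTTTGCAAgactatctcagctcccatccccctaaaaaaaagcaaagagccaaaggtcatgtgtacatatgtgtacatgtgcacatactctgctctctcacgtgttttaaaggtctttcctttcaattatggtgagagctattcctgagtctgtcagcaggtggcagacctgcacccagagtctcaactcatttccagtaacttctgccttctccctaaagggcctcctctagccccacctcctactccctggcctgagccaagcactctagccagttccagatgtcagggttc
Cd55: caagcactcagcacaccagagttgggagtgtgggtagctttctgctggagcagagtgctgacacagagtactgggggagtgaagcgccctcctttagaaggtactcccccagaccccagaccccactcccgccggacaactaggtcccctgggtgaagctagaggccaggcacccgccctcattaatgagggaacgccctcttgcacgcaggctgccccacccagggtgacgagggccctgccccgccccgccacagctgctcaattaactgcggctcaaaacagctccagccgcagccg

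**Figure D2:**
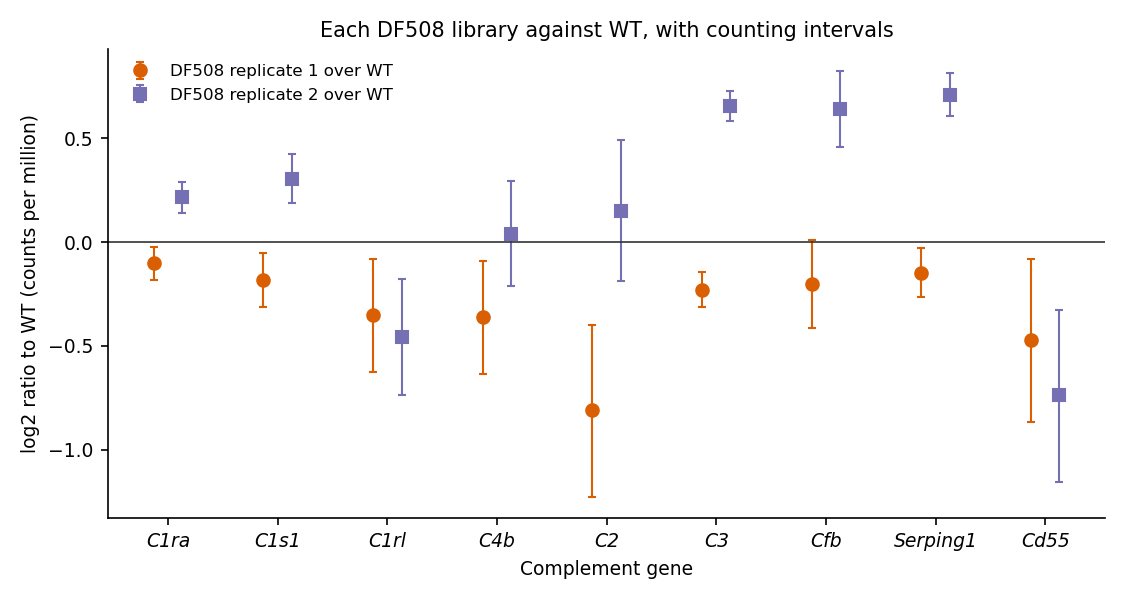
Log2 ratio of each DF508 library to WT for the 9 genes, from CPM, with exact 95% intervals for counting error as bars (circles, DF508 replicate 1; squares, DF508 replicate 2). Replicate 1 lies below 0 for all 9 genes, and replicate 2 lies highest for Serping1, C3 and Cfb and below 0 for C1rl and Cd55.

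Counted over the set, DF508 replicate 1 was below WT for 9 of 9 genes, where 43.0% of all genes tested were, and its counting interval excluded equality for 8, where 10.0% of all genes did so on that side. DF508 replicate 2 was above WT for 7 of 9 genes, where 56.7% of all genes were, and beyond counting error for 5, where 16.6% of all genes were. It was below WT beyond counting error for 2, C1rl and Cd55, where 10.5% of all genes were. These comparisons share the WT library. Set against each other, replicate 2 was above replicate 1 beyond counting error for 7 of 9 genes, against 9.12% of all genes, and at least 1.5-fold above it for 4, C2, C3, Cfb and Serping1, against 6.64%. With both DF508 libraries required to lie 1.5-fold or more to one side of WT, 0 of the 9 genes qualified, while 5.64% of all genes were higher and 2.41% lower by that rule. At 1.2-fold there were 2, C1rl and Cd55, both lower, where 8.71% of all genes were lower and 14.8% higher. Summed over the 9 genes, the level was 1454 and 2237 CPM in DF508 replicates 1 and 2 and 1656 CPM in WT. Counting intervals narrow as counts rise, so genes with many counts pass at smaller differences. C1ra, for example, passed at a ratio to WT of 0.931 in replicate 1. The shares over all genes include genes with few counts and are not matched for depth. The genes were chosen with earlier results of these data known, so these shares are given as a description.

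Myeloid markers moved with the higher complement levels of DF508 replicate 2. All 15 tested markers of that list of 16 were higher in replicate 2 than in replicate 1, with a median log2 ratio of 2.15, beside 0.49 for the 9 complement genes. None of the 15 passed the test of DF508 against WT. Fcgr1 was at 0 in DF508 replicate 1 and in WT, and all other markers were listed in every library. Lyz2 had 82.3 and 390 FPKM in DF508 replicates 1 and 2, against 57.3 FPKM in WT, and Cd68 had 8.52 and 36.0 FPKM, against 4.79 FPKM in WT. The Lyz2 estimate is uncertain because part of its reads also fit elsewhere. In DF508 replicate 1 the summed markers stood 1.56 times above WT while all 9 complement genes stood below it. The part of myeloid cells in the complement levels was not tested. The tendon and fibroblast list had a median log2 ratio of replicate 2 to replicate 1 of 0.07, although its member Tnmd was 1.76-fold higher in replicate 2 (log2 ratio 0.82).

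The rest of the complement system was read from a list of 53 genes, of which 37 were listed in at least 1 library and 20 passed the filter on low counts. Of these 20, 0 rose and 0 fell in edgeR's quasi-likelihood test. The median log2 fold change was 0.65, with 12 positive and 8 negative, beside 0.01 for all genes tested, and the median log2 ratio to WT was 0.2 for DF508 replicate 1 and 1.04 for replicate 2. Other fits called 0 to 5 of them: edgeR with DESeq2 size factors, DESeq2 and limma-voom called Colec12, and edgeR's likelihood ratio test called it with C1qc, C3ar1, C5ar1 and Itgb2.

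Among genes that start the cascade, the collectin Colec12, a surface scavenger receptor, was the most abundant at 300 and 321 FPKM in DF508 replicates 1 and 2, against 408 FPKM in WT (log2 fold change -0.44 ± 0.09 SE, edgeR adjusted p = 0.0572). Its estimates in DF508 replicate 1 and WT are not whole, so it shares reads and is uncertain. The lectin-route protease Masp1 had 21.8 and 11.8 FPKM in the DF508 libraries, against 18.7 FPKM in WT, and was lowest in replicate 2, where most of the 9 genes were highest. The C1q chains, named after their values were seen, were low outside DF508 replicate 2. C1qa, C1qb and C1qc had 14, 33 and 24 counts in DF508 replicate 1, 74, 147 and 130 in replicate 2, and 14, 18 and 9 in WT. These chains are also myeloid markers of the list above. Of the alternative route beyond C3 and Cfb, properdin, Cfp, had 4.05 and 11.4 FPKM in DF508 replicates 1 and 2, against 3.13 FPKM in WT, and factor D, Cfd, had 0 and 1 count, against 0 in WT.

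The genes of the terminal lytic pathway were at or near the detection limit. Of 7, none passed the filter, and their summed level was 0.954 and 1.72 CPM in DF508 replicates 1 and 2 and 1.13 CPM in WT, where 3 counts, the most that a count of 0 allows, correspond to 0.572, 0.572 and 0.566 CPM. C8g had 4 and 5 counts in DF508 replicates 1 and 2 and 3 in WT, and C6 had 1, 2 and 3 counts in these libraries.

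Inhibitors outside the set were led by clusterin, Clu, which binds the terminal complex. It had 264 and 363 FPKM in DF508 replicates 1 and 2, against 379 FPKM in WT (log2 fold change -0.32 ± 0.16 SE, adjusted p = 0.482). On membranes Cr1l, the mouse regulator Crry, had 34.1 and 38.5 FPKM, against 36.4 FPKM in WT, with a log2 fold change of -0.05 ± 0.13 (SE, adjusted p = 0.93). Cr1l thus stood above Cd55 in each library per gene length. Cd59a, which blocks the lytic pore, had 8.55 and 13.7 FPKM in the DF508 libraries, against 7.74 FPKM in WT, and shares reads.

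Of 10 genes for receptors and binding proteins of complement fragments 7 were tested and none passed, with a median log2 fold change of 2.46. Both DF508 libraries stood above WT for 5 of the 7, with replicate 2 the higher. Among all genes tested, both stood above WT for 43.3%. The myeloid markers moved the same way, with median log2 ratios to WT of 0.83 in DF508 replicate 1 and 2.83 in replicate 2, and Itgam, one of the 5, is also on that list. The part of myeloid cells in these levels was not tested. The integrin chain Itgb2 had 2 and 8.38 FPKM in DF508 replicates 1 and 2, against 0.79 FPKM in WT. The receptors of C3a and C5a, C3ar1 and C5ar1, named after their values were seen, followed the same order. C3ar1 had 1.63 and 8.15 FPKM in the DF508 libraries, against 0.44 FPKM in WT (adjusted p = 0.181), and its estimates share reads. C5ar1 had 1.15 and 7.61 FPKM, against 0.38 FPKM in WT (adjusted p = 0.254). C1qbp, a mitochondrial and surface protein that binds C1q, was higher in level and had 42.7 and 33.8 FPKM in the DF508 libraries, against 42.7 FPKM in WT.

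**Figure D3:**
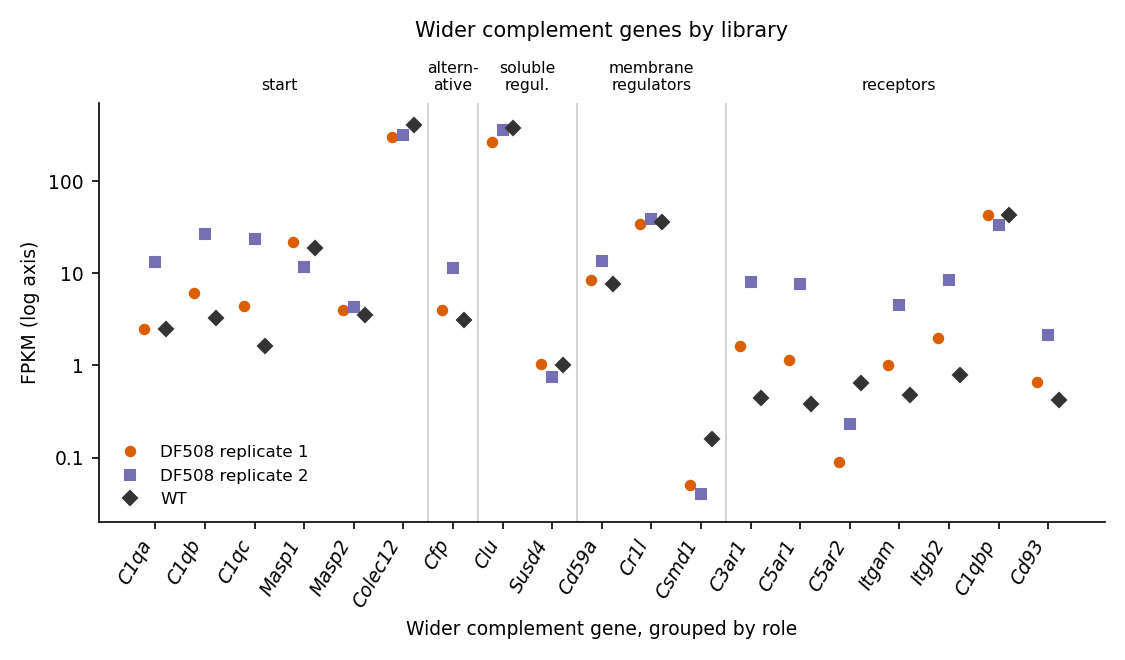
FPKM on a log axis of the tested genes of the wider complement list that are named on the axis, grouped by role, with 1 point per library (circles, DF508 replicate 1; squares, DF508 replicate 2; diamonds, WT). The C1q chains, Cfp and the receptors C3ar1, C5ar1, Itgam, Itgb2 and Cd93 stand highest in DF508 replicate 2, while for Colec12, Clu, Cr1l and C1qbp the 3 points of a gene lie near each other.

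Interferon and NF-kB signals induce C3, Cfb, C2, C4 and Serping1 in many cells, so genes that answer to them were set beside the 9. Of 23 interferon-responsive genes 9 fell and 0 rose in DF508, where 0.9% of all genes tested fell and 0.489% rose. The median log2 fold change of the list was -0.69, with 8 positive and 15 negative. Usp18, which limits interferon signalling, had 6.7 and 5.82 FPKM in DF508 replicates 1 and 2, against 17.1 FPKM in WT (edgeR adjusted p = 0.0181), and Zbp1, a nucleic acid sensor, had 8.54 and 5.64 FPKM, against 17.3 FPKM in WT (adjusted p = 0.0254). Of 17 tested acute-phase and NF-kB genes 6 fell and 0 rose, against the same 0.9% and 0.489% of all genes, with a median of -0.46. Of the 23 interferon-responsive genes, Irf1, Psmb9, Tap1, H2-K1, H2-D1 and B2m lay below WT in DF508 replicate 1 and above it in replicate 2. Of the 17 acute-phase and NF-kB genes, Lcn2, Saa3, Hp and Nfkbia did. These genes were named after their values were seen. That pattern held for 13.4% of all genes tested. In replicate 1, 20 of the 23 interferon-responsive and 15 of the 17 acute-phase and NF-kB genes were below WT, where 43.0% of all genes tested were. In replicate 2, 15 and 13 were below WT and 8 and 4 above it, where 56.7% of all genes were above. Among the genes with the pattern, H2-K1 is the peptide-presenting class I chain and Lcn2 an iron-carrier-binding protein. H2-K1 was at 0.887 of WT in DF508 replicate 1 and 1.34 in replicate 2. Lcn2 was at 0.694 and 1.22 of WT in these libraries. Estimates of H2-K1, H2-D1, Tap1 and Saa3 share reads. The chemokines Cxcl5 and Ccl2 fell (log2 fold changes -1.25 and -1.02, edgeR adjusted p = 0.00225 and 0.00587), and Cxcl5 shares reads. Both lists were written with earlier results of these data known. Whether the 9 complement genes differ from these lists was not tested. In the smooth muscle and pericyte list 3 of 7 tested genes rose, against 0.489% of all genes, with the largest fitted changes in Cnn1 (log2 fold change 1.83 ± 0.16 SE, adjusted p = 0.00335) and Acta2 (1.31 ± 0.1 SE, adjusted p = 0.00178), and Acta2 shares reads.

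**Figure D4:**
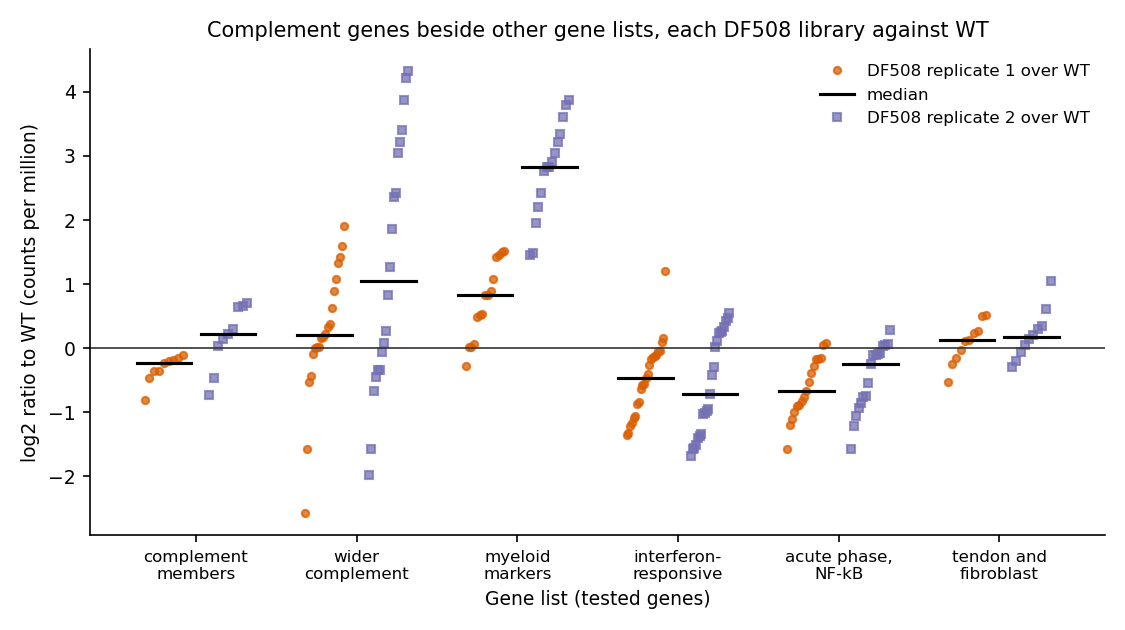
Log2 ratio of each DF508 library to WT for the tested genes of 6 lists, with 1 point per gene, from CPM (circles, replicate 1; squares, replicate 2; bars, medians). The complement members have medians of -0.23 and 0.21, the wider complement genes 0.2 and 1.04, the myeloid markers 0.83 and 2.83 and the interferon-responsive genes -0.47 and -0.72 in replicates 1 and 2.

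Estimates that are not whole in at least 1 library mark genes that share reads, and by this mark C4b, C1s1, C1ra, C1rl and Cd55 are uncertain, while C2, C3, Cfb and Serping1 had whole counts throughout. The copy C4a took 2.73% and 3.44% of the estimates of the C4a and C4b pair in DF508 replicates 1 and 2 and 3.27% in WT. For Cd55b beside Cd55 the shares were 3.57% and 1.59% in the DF508 libraries and 4.24% in WT. C1s2 and C1rb had at most 3.96 and 3.86 estimated counts in any library. These are the estimates assigned to each copy, and how many reads fit both was not measured.

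Of the genes averaging 5 CPM or more, 10942 were compared by pattern, and those nearest to the 3-library pattern of C1ra were Ncaph2, Utp11 and Cnpy3. Their Euclidean distances in centred log2 CPM were 0.00839, 0.0104 and 0.0104. For Cd55 they were Zfp846, Sgk1 and Spsb1, at 0.0199, 0.0265 and 0.0292. Sgk1, a serum-induced kinase, had 186 and 156 CPM in DF508 replicates 1 and 2, against 264 CPM in WT. Over 3 libraries many genes are this close, and the likeness is a description.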

How the data were processed

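Poly(A) RNA of 2 DF508 libraries and 1 WT library was sequenced on an Illumina instrument, per the labels. Bowtie, RSEM and the mm9 genome are named in the submitters' processing notes, and the sources used here do not state versions or strand use. Per the file headers, the deposited table of each library holds expected counts (RSEM estimates, not normalized), FPKM values scaled by the authors and the gene length used. A gene missing from a table was set to 0. Between 79.4% and 79.8% of the expected counts were whole within 0.005.

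Gene IDs were named from RefSeq (GRCm38.p6, 16579 of 16621 matched), which also gave the promoter windows. Expected counts were rounded and fitted with edgeR 4.0.16 (R 4.3.3): TMM scaling, filterByExpr, the quasi-likelihood test with genotype as the sole term, Benjamini-Hochberg over 12888 genes and a threshold of 0.05. Spread came from the DF508 replicates alone (1 residual and a median of 7.72 prior degrees of freedom), so the single WT library is taken to vary as they do. The standard error is the fold change over the root of F. CPM values use library totals. Intervals of ratios are exact (Clopper-Pearson, 95%) and, like the floor of 3 counts, cover counting error only. On simulated data with 200 changed genes, the share called by the fit varied widely between simulations and was low in some. A gene not called may therefore still differ. Recovery of the signs and sizes of changes as small as those fitted for the complement genes was not shown. Alternatives were library totals, DESeq2 size factors, no filter, a minimum mean of 50 counts, DESeq2 1.42.0, limma 3.58.1 (voom, and trend on log2(FPKM + 1) or log2(FPKM + 0.1)), the likelihood ratio test and each DF508 library left out.

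The members and all lists were chosen with earlier results of these data known. Named genes are the 9 members, Cftr, near copies, up to 2 genes by FPKM in each role group of the wider list, up to 2 genes of each other list by fold change among those past the threshold (by FPKM where none passed), and the nearest genes by pattern. Outside this rule the text also names Tnmd, Scx, Tek, Fcgr1, Itgam, Cd93 and the genes marked as named after their values were seen. The epithelial, lymphoid and endothelial lists are given as sums, since nearly all their genes were at or near 0. Protein sequences were not used here, and 1 gene of the wider list is not reported here by name.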

Additional observations from a re-analysis of the deposited data

How the results depend on the processing

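All 9 complement genes kept the direction of their fold change in each of the 10 alternative fits that used all libraries, 90 values in all, and none of the 86 with an adjusted p passed the threshold, with a lowest adjusted p of 0.178 (C1rl). Of these fits, 5 called no gene at all: edgeR with library totals, edgeR with no filter and the 3 fits on FPKM, where 1253, 1123, 1145, 1159 and 1615 genes had an unadjusted p below 0.05, so their absence of calls says nothing about these genes. The numbers of all genes called were 179 in the quasi-likelihood test, 260 with DESeq2 size factors, 157 at a mean of at least 50 counts, 67 with DESeq2's Wald test, 189 with limma-voom and 403 with the likelihood ratio test. Of the wider complement list, 1 gene was called with DESeq2 size factors, 1 with DESeq2's Wald test, 1 with limma-voom and 5 with the likelihood ratio test, against 0. The cause was not tested. Of the 9 genes, 0 lay 1.5-fold or more to one side of WT in both DF508 libraries, and 2 did at 1.2-fold. With 1 DF508 library left out this number ran from 1 (C2, without replicate 2) to 4 (C3, Cfb and Serping1 higher and Cd55 lower, without replicate 1), since fewer libraries then had to pass. The median log2 fold change of the 9 genes, 0.02, ran from -0.23 without replicate 2 to 0.21 without replicate 1, and no test is left with 1 library a group. The sign of the log2 fold change turned for 7 of the 9 genes when a library was left out: C2 and C4b came to 0.15 and 0.04 without replicate 1, and C3, C1s1, C1ra, Cfb and Serping1 came to -0.23, -0.18, -0.10, -0.20 and -0.15 without replicate 2. C1rl and Cd55 kept their sign. With 1 library left in each group, these signs restate on which side of WT each DF508 library lay. No paired analysis was possible because WT has 1 library and its label carries no number. Low counts limit the terminal components, the C1q chains and the receptors.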
